A study of Mus musculus with 18 samples.

Results

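Late loading of newly made mRNA onto ribosomes was followed in RAW264.7 cells, an established mouse macrophage-like line, between 60 and 120 min of labelling with 4-thiouridine (4sU). This uridine analogue enters RNA as it is transcribed. The comparison rests on 6 of the 18 libraries of the series: 1 ribosome footprint library and 1 cytoplasmic input library from each of 3 lysates of experiment 1. Those lysates came from cells given 200 µM 4sU for 60, 90 or 120 min. About 10% of each lysate was kept as input and broken up by alkali, and the remainder was digested with RNase I before monosomes were taken. The wider set held lysates of experiment 1 at 0, 20 and 40 min and of experiment 2 at 20, 30 and 40 min, each again with footprints and input. Each labelling time thus had 1 lysate, and the labels do not state whether lysates are separate cultures. A p-value here covers no more than the scatter of these lysates, which the main edgeR fit pooled across genes.

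An mRNA that leaves the nucleus joins the cytoplasmic pool before it carries ribosomes, and a translated mRNA is covered by many ribosomes along its coding sequence. In this assay the incorporated 4sU is turned chemically into a base read as C, so a T-to-C conversion in a read marks RNA made during the labelling. When new mRNA is loaded to the same degree as old mRNA, footprints and input hold converted reads at the same odds, provided that conversion is equally efficient in both. A shortfall in footprints means that converted reads carried fewer footprints per input read than unconverted reads of the same gene. That ratio of densities equals the odds ratio by arithmetic. Unconverted reads can also come from new RNA that took up no 4sU in the stretch read, so the ratio is not the whole contrast between new and old mRNA.

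A conversion can only be read at a T. The first 60 coding bases of 4 genes described here show this, from GENCODE vM21 transcripts of build GRCm38, 5′ to 3′, with each T in capitals. Their windows hold 11, 15, 9 and 15 T in the order printed. Mdn1 and Vps13c stood among the genes with the lowest odds of conversion in footprints against input, and Pabpc1 and Rpsa among those with the highest.
Mdn1: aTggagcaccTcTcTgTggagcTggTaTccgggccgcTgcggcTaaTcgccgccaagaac
Vps13c: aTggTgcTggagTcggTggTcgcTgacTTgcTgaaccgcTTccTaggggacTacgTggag
Pabpc1: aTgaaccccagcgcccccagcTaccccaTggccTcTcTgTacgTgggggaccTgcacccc
Rpsa: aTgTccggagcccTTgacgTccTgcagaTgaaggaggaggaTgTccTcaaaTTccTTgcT
Footprint reads held 6.87, 6.55 and 6.56 T on average at 60, 90 and 120 min, and input reads 6.62, 6.79 and 6.65. Across genes the T per read followed the T share of the coding sequence in both materials, with Spearman's rho of 0.90 to 0.92 in footprints and 0.94 in each input library (2191 to 4068 genes with at least 500 reads). With the T share of the whole transcript rho was only 0.55 to 0.60, so both materials appear to have been counted over coding sequence.

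Footprint libraries held 11771175, 17535867 and 18678728 reads at 60, 90 and 120 min, and input libraries 7933796, 7191235 and 6230562. Macrophage markers all had reads, 10 of 10, at a summed 6880 to 13329 CPM, counts scaled to library size. Lyz2 alone gave 4282 to 8623 CPM, while Itgam was at 1.77 to 5.36 and Fcgr3 at 5.62 to 6.90 CPM. Of 12 markers of other cell types 3 had any read, 19 reads in all, and Cd3e, Epcam, Col1a1 and Alb were at 0. Of 14002 genes listed in any library, 8526 had a mean of at least 50 reads over the 6 libraries. A further minimum of 50 converted reads in all left 6977 genes to test.

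Reads with a conversion were under-represented in footprints at each of the 3 late times. Whether conversion was equally efficient in both materials was not tested. Converted reads, those with at least 1 conversion, made up 2.43%, 4.00% and 5.54% of footprints at 60, 90 and 120 min, against 3.91%, 5.20% and 8.07% of input. Without label they made up 0.298% of footprints and 0.289% of input. The odds of conversion in footprints were 0.612, 0.760 and 0.669 times those in input at 60, 90 and 120 min. On the log2 scale that is -0.71 (95% Woolf interval -0.71 to -0.70), -0.40 (-0.40 to -0.39) and -0.58 (-0.59 to -0.58). Such intervals hold counting error alone. The mean was -0.56 ± 0.16 (SD, n = 3), below 0 in 3 of 3 lysates. An exact sign-flip test, two-sided, gave p = 0.25, and 3 lysates cannot give a smaller one. The late lysates did not fall in order of time, since the 90 min lysate lay nearest to 0. The unlabelled lysate gave 0.05 (0.02 to 0.07). For reads with at least 2 conversions the shortfall was larger, at -1.18, -0.72 and -0.98 at 60, 90 and 120 min and a mean of -0.96 ± 0.23 (SD, n = 3). The unlabelled lysate gave -0.84 (-1.09 to -0.59) by that measure, from 375 such reads in footprints and 189 in input. Lysates are bulk material, so a change in fewer cells and a smaller change in all cells cannot be told apart.

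**Figure D1:**
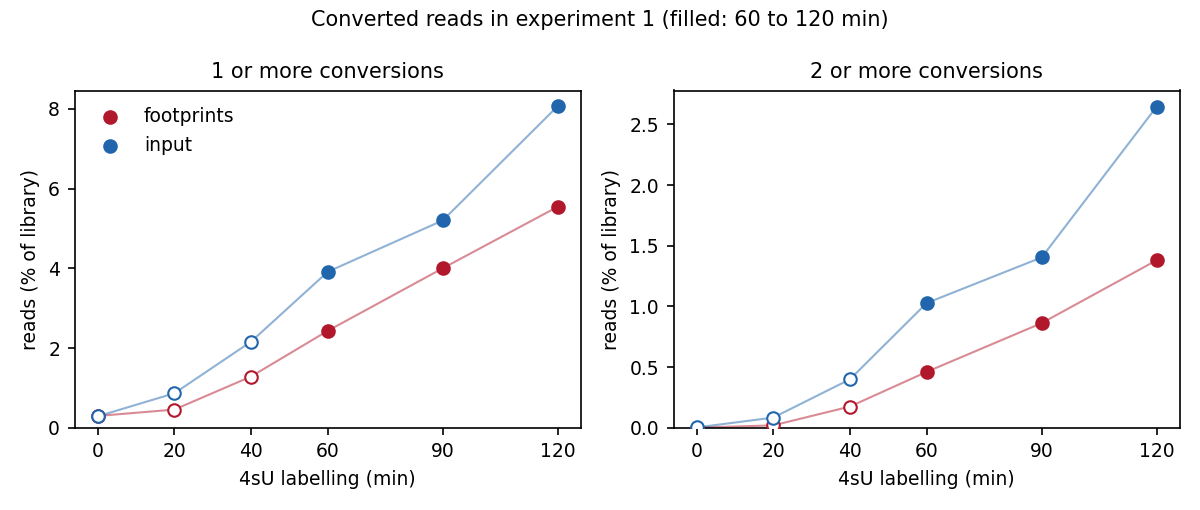
Converted reads as a percentage of each library (y axis) against minutes of 4sU (x axis) in experiment 1, for reads with at least 1 conversion (left) and at least 2 (right). Each point is 1 library, red for footprints and blue for input, and filled points are the 60, 90 and 120 min libraries. Footprints lay below input at each labelled time, with 5.54% against 8.07% at 120 min in the left panel.

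The next question was which mRNAs still lagged. By edgeR's quasi-likelihood test with the lysate as a block and Benjamini-Hochberg adjustment, 1453 of 6977 genes (20.8%) had lower odds of conversion in footprints than in input and 36 (0.516%) had higher odds. At least 2-fold lower odds were called for 676 genes (9.69%) and at least 2-fold higher odds for 19 (0.272%). The median over all genes tested was -0.40. Among the called genes, 1418 of the 1453 lower and 33 of the 36 higher genes lay on 1 side of 0 in 3 of 3 lysates. The count of lower genes was 296 without the 120 min lysate, 869 without the 60 min lysate and 1527 without the 90 min lysate, and DESeq2 called 662. The count of higher genes was 9 without the 120 min lysate, 37 without the 60 min lysate and 22 without the 90 min lysate, and DESeq2 called 12. The number of calls depended on the pairing by lysate and on the test: with 1 input term for the 3 lysates edgeR called 0 (160 at an unadjusted p under 0.05), and limma with a pseudocount of 0.5 called 231 lower and 5 higher. After subtraction of the library-wide unlabelled share of each material limma called 0, with 1902 lower and 62 higher genes at an unadjusted p under 0.05. That share is the same for every gene, so a gene's own unlabelled conversion was not removed.

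Across all 6977 genes the log2 odds ratios of single lysates were only loosely related, with rho between pairs of lysates of 0.28 to 0.38. Over the 1493 genes with at least 1000 input reads on average rho was 0.48 to 0.60. These pairs share no library, but they share gene length and depth.

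The genes that lagged most were large genes of many exons. The 12 lowest among genes that averaged 100 or more reads over the 3 libraries of each material were Vps13a, Mdn1, Vps13c, Myo1g, Nemf, Rnf213, Iqgap1, Ralgapa1, Wdr11, Prkdc, Hnrnph3 and Epg5, at -2.72 to -2.13. Of these, 11 have at least 20 exons and 11 a coding sequence of at least 3000 bases. All 12 kept the call under DESeq2 and without the 60 or the 90 min lysate, while Prkdc and Ralgapa1 lost it without the 120 min lysate.

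Vps13a and Vps13c encode giant bridge-like proteins that move lipids between membranes. Converted reads of Vps13c (ENSMUSG00000035284, chromosome 9, 67840396 to 67995638, + strand, 85 exons) made up 0.283%, 0.659% and 0.916% of its footprints at 60, 90 and 120 min, against 2.36%, 2.97% and 5.07% of its input reads. The highest footprint value was below the lowest input value. Its log2 odds ratio was -2.51 (SE 0.21, adjusted p = 8.86e-30). Without label Vps13c held 0.364% converted footprints, so its 60 min footprints were at the unlabelled level. Vps13a (ENSMUSG00000046230, chromosome 19, 16615366 to 16780933, − strand, 72 exons) had 0.296%, 0.390% and 0.784% converted footprints, against 2.02%, 2.61% and 4.94% of input. Again the materials did not overlap. The 60 min footprints were below the unlabelled 0.387%, and the 90 min footprints were at that level. The log2 odds ratio was -2.72 (SE 0.38, adjusted p = 2.02e-13), and -3.69 from reads with at least 2 conversions.

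Mdn1 encodes midasin, a giant ATPase that matures the large ribosomal subunit, and has the longest coding sequence of the 12, at 16746 bases in 102 exons (ENSMUSG00000058006, chromosome 4, 32657119 to 32775217, + strand). Its converted share was 0.933%, 0.689% and 1.18% of footprints at 60, 90 and 120 min, against 2.01%, 4.77% and 9.14% of input. The highest footprint value was below the lowest input value. By lysate the log2 odds ratio was -1.10, -2.83 and -3.07, and the fit gave -2.53 (SE 0.24, adjusted p = 6.73e-25). Its change per hour, -1.86 (SE 0.69), had an unadjusted p = 0.00752 by edgeR and an adjusted p = 0.9998.

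Rnf213, a giant ubiquitin ligase, gave nearly the same value in the 3 lysates, -2.15, -2.27 and -2.25, with 0.657%, 1.17% and 2.18% converted footprints against 3.0%, 5.52% and 9.65% of input. Iqgap1, a scaffold of the actin cytoskeleton, had 1.04%, 1.82% and 1.17% converted footprints against 4.85%, 5.39% and 8.19% of input. Its log2 odds ratio was -2.25 (SE 0.28, adjusted p = 8.13e-14). Prkdc, the catalytic subunit of DNA-dependent protein kinase, had 0.889%, 0.892% and 1.29% against 2.71%, 3.12% and 7.58%, at -2.15 (SE 0.44). In none of these genes did the footprint and input values overlap, but those of Prkdc rested on only 4, 6 and 9 converted footprints. The remaining lowest genes have varied roles, with Myo1g, a class I myosin, at -2.47, and Nemf, a factor of ribosome-associated quality control, at -2.38. Myo1g rested on 1, 7 and 12 converted footprints, and its 0.166% at 60 min was below its unlabelled 0.296%. Ralgapa1, of the Ral GTPase-activating complex, was at -2.21, and Epg5, an autophagy tether, at -2.13. At 60, 90 and 120 min Ralgapa1 rested on 3, 12 and 11 converted footprints and Epg5 on 2, 14 and 8. Hnrnph3, an RNA-binding protein of the hnRNP family, was the single gene of the 12 with a short coding sequence, 1038 bases in 10 exons, at -2.15. It rested on 4, 21 and 20 converted footprints and on 11, 8 and 10 converted input reads. Nemf overlaps Klhdc2 and Hnrnph3 overlaps Rufy2 in the annotation, so those values are uncertain.

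**Figure D2:**
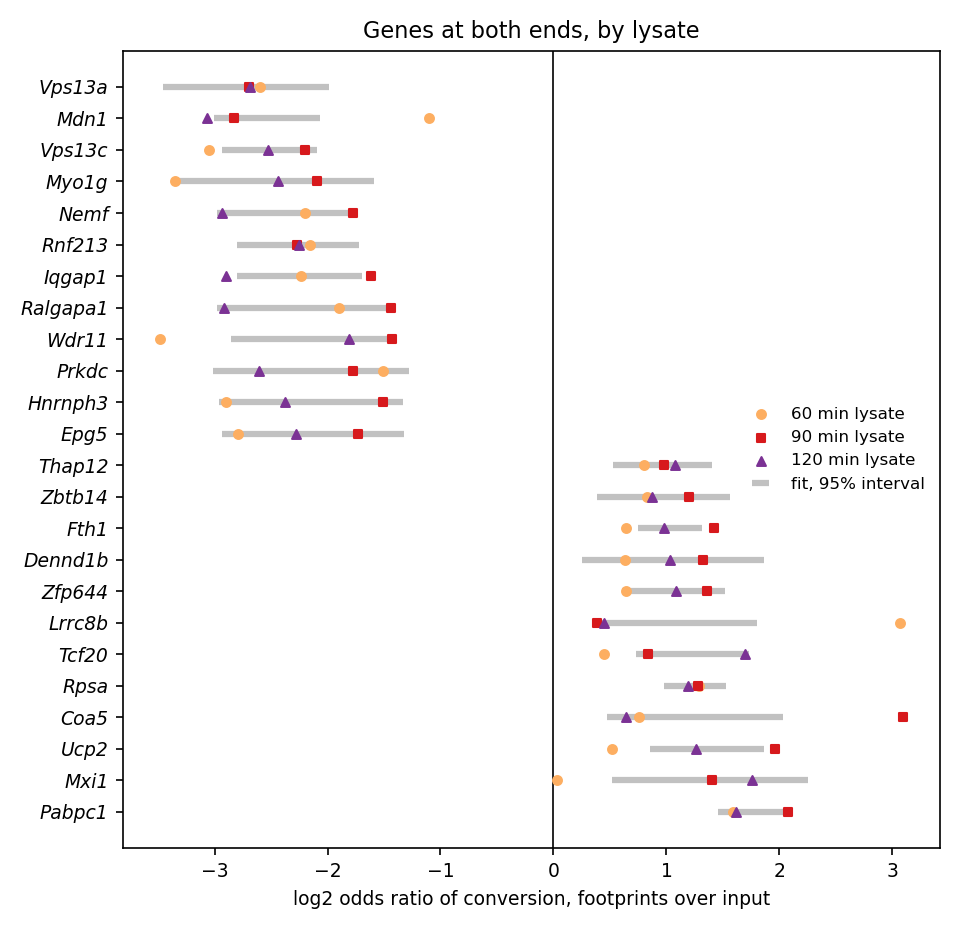
Log2 odds ratio of conversion, footprints over input (x axis), for the 12 lowest and the 12 highest genes named by the rule, with the 3 lysates as symbols and the fitted value's 95% interval as a grey bar. Each lowest gene was below -1 in every lysate, while Mxi1, Lrrc8b and Coa5 of the highest genes had 1 lysate far from the other 2.

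Genes that had caught up were asked about next. Called near parity were 167 genes (2.39%) that passed no call and whose 95% interval lay within 0.5 of 0 on the log2 scale. The other 5321 genes (76.3%) were unresolved at this depth. Near-parity genes were deeply read, with a median of 4669 reads per footprint library and 1957 per input library, against 556 and 321 for unresolved genes, so the class holds mostly abundant mRNAs. The 8 with the narrowest interval were Eef1a1, Hspa8, Actb, Rpl4, Rps3a1, Rps6, Eef2 and Hspa5, at -0.22 to 0.06. They are abundant mRNAs of translation, of protein folding and of the cytoskeleton.

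Eef1a1, the elongation factor that brings tRNA to the ribosome, had 1.81%, 2.47% and 3.10% converted footprints at 60, 90 and 120 min, against 1.87%, 2.09% and 3.55% of input. The materials overlapped, at a log2 odds ratio of 0.00 (95% interval -0.23 to 0.23). Hspa8, a constitutive chaperone labelled faster, had 6.90%, 11.7% and 18.8% against 7.55%, 10.6% and 21.5%, at -0.07 (-0.32 to 0.17). Actb, cytoplasmic actin, had 1.51%, 2.37% and 3.05% against 1.96%, 2.16% and 3.42%, at -0.14 (-0.38 to 0.11). In each of these the 90 min lysate lay above 0 and the 120 min lysate below it. Parity depended on what counts as converted. From reads with at least 2 conversions 7 of the 8 genes were called lower in footprints, at -0.62 to -0.39, and Rps3a1, at -0.30, was not (edgeR adjusted p = 0.196). Among the 3287 genes that could be tested that way, 1215 were lower (37%) and 11 higher (0.335%), with a median of -0.74. Actb, Eef2 and Hspa5 also became called without the 90 min lysate.

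The 36 genes with higher odds in footprints formed a small group. At the top stood Pabpc1, the main cytoplasmic poly(A)-binding protein (ENSMUSG00000022283, chromosome 15, 36595661 to 36609668, − strand). Its converted share was 4.87%, 7.98% and 11.5% of footprints, against 1.67%, 2.02% and 4.06% of input at 60, 90 and 120 min. Every footprint value exceeded every input value, at a log2 odds ratio of 1.78 (SE 0.17, adjusted p = 2.42e-23). Rpsa, a protein of the small ribosomal subunit (ENSMUSG00000032518, chromosome 9, 120127689 to 120132369, + strand), had 4.04%, 5.20% and 7.17% against 1.70%, 2.21% and 3.28%. By lysate Rpsa was at 1.29, 1.28 and 1.19, and the fit gave 1.25 (SE 0.14, adjusted p = 2.75e-16). Rpsa has 9 named pseudogenes, so reads may be shared among copies. Fth1, the ferritin heavy chain whose translation answers to iron, had 4.10%, 6.69% and 7.49% against 2.67%, 2.60% and 3.93%. Its footprint values lay above the input values, save that 4.10% was only just above 3.93%, at 1.03 (SE 0.15, adjusted p = 3.74e-10).

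The other highest genes were less deeply read. Ucp2, a mitochondrial carrier, was at 1.36 (SE 0.26, adjusted p = 6.21e-06), with 2.25%, 6.82% and 8.35% converted footprints against 1.59%, 1.84% and 3.65% of input. Tcf20, a nuclear coregulator, was at 1.23 (SE 0.26), with 0.959%, 4.55% and 13% against 0.780%, 2.63% and 4.45%. In both, the 60 min footprint value lay within the range of the input values. The remaining highest genes were Mxi1, a partner of Max that opposes Myc, at 1.38, Coa5, a cytochrome c oxidase assembly factor, at 1.25, Lrrc8b, an anion channel subunit, at 1.07, the zinc finger gene Zfp644 at 1.06, Dennd1b, an exchange factor for Rab GTPases, at 1.06, Zbtb14 at 0.98 and Thap12 at 0.97. Without the 120 min lysate 7 of the 12 lost the call (Dennd1b, Lrrc8b, Mxi1, Tcf20, Thap12, Zbtb14 and Zfp644). Lrrc8b lost it without the 60 min lysate, and Coa5, Dennd1b and Zbtb14 without the 90 min lysate. DESeq2 did not call Mxi1, Coa5, Lrrc8b, Dennd1b or Zbtb14. Of the 36 genes 12 overlap another gene or have named pseudogenes, among the named ones Rpsa, Ucp2 (Dnajb13) and Mxi1 (Gm10197).

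The 36 genes shared a low density of footprints. Ribosome density, the log2 ratio of footprint to input CPM over the 3 lysates, had a median of -1.90 among them and was below 0 in 35. Among genes that lagged it had a median of -0.06, with 776 of 1453 below 0, and among near-parity genes -0.10. In 4 equal bins of density, low to high, the counts of higher genes with annotation were 29, 5, 1 and 0. Density and conversion were read from the same libraries, so these points share their counting error. Pabpc1 stood at -2.38, Rpsa at -2.59 and Tcf20 at -3.88.

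Set against the library-wide odds instead of equal odds, 265 genes were lower (3.8%) and 550 higher (7.88%), with a median of 0.15. Centred at the median over genes of each lysate, 387 were lower (5.55%) and 258 higher (3.7%), in all 9.24%, so the split between directions depends on the centre. DESeq2 called 112 lower and 179 higher against the library-wide odds, and limma called 0 in either direction, with 432 lower and 878 higher at an unadjusted p under 0.05. The same 12 genes were lowest, led by Vps13a at -2.20 (SE 0.33, adjusted p = 2.72e-07) and Mdn1 at -2.07 (SE 0.23). Pabpc1 led the other end at 2.34 (SE 0.11, adjusted p = 4.6e-25), followed by Mxi1 at 1.95, Ucp2 at 1.91 and Rpsa at 1.80. Among the 12 highest, Gid4, a subunit of a ubiquitin ligase, at 1.66, Ccni, a cyclin-family protein, at 1.65 and Ctdsp2, a small phosphatase, at 1.60 took the places of Lrrc8b, Zbtb14 and Thap12. All 24 of these calls held with the median as the centre and with mitochondrially encoded and histone genes left out of the library-wide odds. DESeq2 did not call 7 of the 12 lowest (Epg5, Hnrnph3, Mdn1, Myo1g, Prkdc, Ralgapa1 and Wdr11) and 5 of the 12 highest (Coa5, Ctdsp2, Dennd1b, Gid4 and Mxi1). Without the 120 min lysate 3 of the lowest (Hnrnph3, Prkdc and Ralgapa1) and 4 of the highest (Ccni, Dennd1b, Gid4 and Mxi1) lost the call, and without the 90 min lysate Prkdc and 4 of the highest (Coa5, Ctdsp2, Dennd1b and Gid4).

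What the lagging genes share was looked at over 6838 genes with a coding annotation. Exon number and the log2 odds ratio had rho of -0.42 in the fit, and of -0.29, -0.35 and -0.31 in the lysates of 60, 90 and 120 min. Coding length gave -0.31, gene span -0.15, the T share of the coding sequence -0.14 and 3′ UTR length 0.08. The genes share libraries and depth, so these are descriptions. The relation with exon number was -0.42 after stratification by T per read, -0.42 after subtraction of the unlabelled share and -0.43 from reads with at least 2 conversions.

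The shortfall was of similar size up to 9 exons and grew from 10 exons on. Single-exon genes had a median log2 odds ratio of -0.29 (151 genes), those with 2 to 4 exons -0.24 (1021), 5 to 9 exons -0.28 (2228), 10 to 19 exons -0.46 (2348), 20 to 29 exons -0.73 (742) and 30 or more exons -1.01 (348). The share called lower was 66.7% of genes with 30 or more exons, 6.46% of those with 2 to 4 exons and 15.9% of single-exon genes. These shares are not matched for depth. The median gene had 739.5 reads per input library at 30 or more exons, 226 at 2 to 4 exons and 273 at 1 exon. At 120 min the median gene of 30 or more exons had 3.22% converted footprints against 6.65% of input, and the median gene of 2 to 4 exons 15.2% against 17%. Among genes that lagged 585 of 1437 with annotation had at least 20 exons, against 1 of 35 that were higher and 3 of 167 near parity. Without label, pooled reads of genes with 30 or more exons had a log2 odds ratio of 0.05 (95% Woolf interval -0.04 to 0.14). That bin thus showed no shortfall without label. The other bins, from 1 exon upwards, gave -0.12, 0.21, 0.08, 0.06 and -0.05, so they were not all alike. Pooled in the same way, 60, 90 and 120 min gave -1.19, -0.96 and -1.17 for 30 or more exons. For 2 to 4 exons they gave -0.68, -0.31 and -0.61.

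Exon number and coding length go together, so the medians were read within bands of each. Among genes with 2000 to under 4000 coding bases the median was -0.29 with 1 to 4 exons, -0.22 with 5 to 9, -0.48 with 10 to 19 and -0.74 with 20 or more. Among genes with 10 to 19 exons it hardly moved with coding length: -0.43 under 1000 bases, -0.46 at 1000 to under 2000, -0.48 at 2000 to under 4000 and -0.47 at 4000 or more. Among genes with 20 or more exons the median was lower at greater coding length. It was -0.61 at 1000 to under 2000 bases (24 genes), -0.74 at 2000 to under 4000 and -0.94 at 4000 or more. Genes with 4000 or more coding bases and at least 20 exons thus had the lowest median, and 62.3% of these 416 genes were called lower. Within the band of 10 to 19 exons coding length had rho of -0.04 (2348 genes), and within 1000 to under 2000 coding bases exon number had rho of -0.32 (2591 genes). The order held in each lysate: in the band of 2000 to under 4000 the medians for 20 or more exons were -0.97, -0.61 and -0.74 at 60, 90 and 120 min, against -0.48, -0.01 and -0.25 for 5 to 9 exons.

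**Figure D3:**
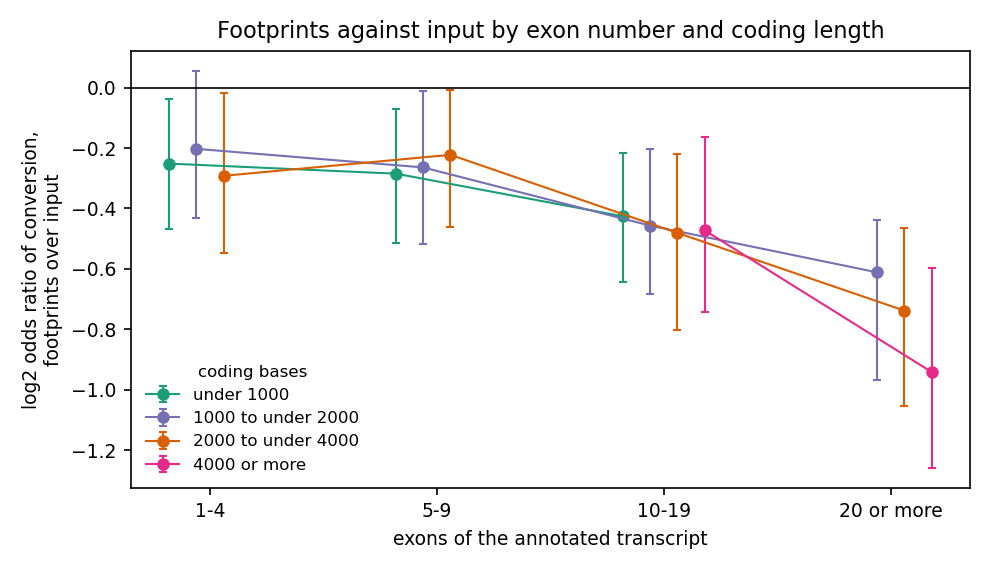
Median log2 odds ratio of conversion, footprints over input (y axis), by number of exons (x axis) and coding length (colour), with bars from the 25th to the 75th percentile of genes. Within a colour the median fell at 10 or more exons, and at 10 to 19 exons the 4 colours lay between -0.48 and -0.43.

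How fast an mRNA is labelled was taken from the input of experiment 2 at 40 min, which the fit did not use. In 4 equal bins of that share, the least labelled bin had a median log2 odds ratio of -0.49 and the most labelled bin -0.26. Exon number showed the same order within the bins: genes with 20 or more exons were at -0.87 in the least and -0.52 in the most labelled bin, against -0.30 and -0.23 for genes with 1 to 4 exons. Label and exon number are related, since single-exon genes were the most labelled, with a median of 30.2% converted input reads at 120 min.

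The exon pattern was not there at the first labelled time. At 20 min the medians were -0.56 for genes with 30 or more exons and -0.94 for those with 2 to 4, and rho with exon number was 0.07 in experiment 1 and 0.14 in experiment 2. At 40 min they were -1.27 and -0.53, with rho of -0.25 in experiment 1 and -0.11 in experiment 2. At 60, 90 and 120 min they were -1.14, -0.85 and -1.08 for 30 or more exons and -0.39, -0.05 and -0.31 for 2 to 4 exons. At 20 min only 0.458% of footprints were converted, against 0.298% without label, so the early ratios of single genes rest on few labelled reads.

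**Figure D4:**
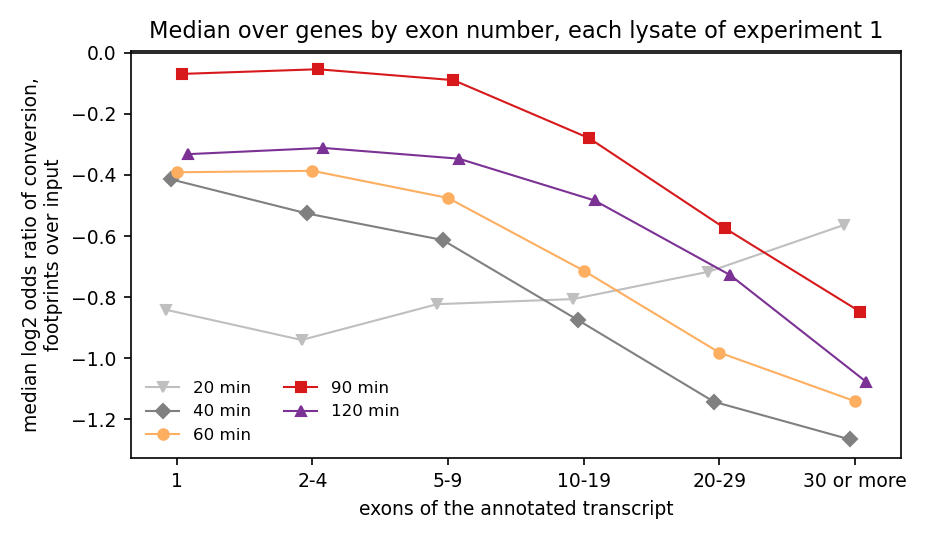
Median log2 odds ratio of conversion, footprints over input (y axis), by exon number (x axis), 1 line per lysate of experiment 1. From 40 min on the lines fell towards many exons, reaching -1.08 at 120 min for 30 or more exons, while the 20 min line did not.

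Across gene lists the counts of lagging members are read against the 20.8% of all genes tested that were lower and the median of -0.40. The share called depended on depth. In 4 equal bins of input level, low to high, 7.54%, 15.8%, 22.6% and 38.0% of genes were lower. The medians of these bins were -0.28, -0.38, -0.43 and -0.45. A count above 20.8% in a list of abundant mRNAs therefore does not by itself show a larger lag, and lists were not matched for depth. Lists were written from general knowledge, and members chosen for the text are those with the smallest adjusted p. RNA-binding proteins of pre-mRNA processing come first. Of 25 hnRNP genes 17 were lower and 0 higher, with a median of -0.71. Hnrnpa2b1 had 1.03%, 1.84% and 2.49% converted footprints at 60, 90 and 120 min against 2.80%, 3.12% and 6.38% of input, at -1.23 (SE 0.15, adjusted p = 1.26e-12). Hnrnph1 was at -1.30, Hnrnpa1 at -0.95 and Hnrnpu, which overlaps Cox20, at -0.88. Of 32 SR proteins and other splicing regulators 14 were lower and 0 higher, with a median of -0.54. Srrm1 was at -1.41, Srsf5 at -1.29, Sfpq at -1.10 and Rbm39 at -1.01. The median was 12 exons for hnRNPs and 11 for splicing regulators, against 10 for all genes tested. Their median coding lengths were 1347 and 1473 bases, against 1386 for all genes tested.

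Chromatin regulators, with a median of 24 exons, had the lowest median of the 28 lists with a gene tested, -0.72, with 25 of 50 lower and 0 higher. Dnmt1, the maintenance DNA methyltransferase, had 0.704%, 1.17% and 1.82% converted footprints against 1.79%, 3.0% and 4.25% of input, at -1.33 (SE 0.17, adjusted p = 3.11e-12). The remodeller Chd8 was at -1.57 and the corepressor Ncor1, which overlaps Pigl and Ttc19, at -1.36. Mitotic genes were lower in 15 of 34 cases and higher in 0, with a median of -0.58, Top2a at -1.25, Kif23 at -1.03, Anln at -0.97 and Mki67 at -0.81. DNA replication genes were lower in 18 of 42 cases and higher in 0, with a median of -0.49. Among them were the ligase Lig1 at -1.84 (it overlaps Zswim9), the polymerase subunit Pole at -1.29 and the clamp loader subunit Rfc1 at -1.05.

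The translation machinery was mixed. Of 74 cytosolic ribosomal protein genes 11 were lower and 6 higher, 31 were near parity, and the median was -0.19. Against the library-wide odds 48 were higher and 2 lower, and with the median over genes as the centre 25 were higher and 2 lower. Rpl10a, at -1.31 (SE 0.16, adjusted p = 1.1e-13), and Rps16, at -1.02, lay opposite to Rpsa and to Rplp0, at 0.68 (SE 0.14, adjusted p = 2.2e-05). Rplp0 had 3.28%, 4.67% and 7.58% converted footprints against 2.59%, 2.99% and 3.92% of input, and Rpl10a 0.581%, 0.953% and 0.931% against 1.48%, 1.88% and 2.73%. These 4 genes have named pseudogenes, so their values are uncertain. Other mRNAs with a terminal oligopyrimidine tract, whose translation follows growth signals, were lower in 8 of 22 cases and higher in 1, Pabpc1, with the importins Ipo5 at -1.07 and Ipo7 at -1.01. Translation initiation factors were lower in 17 of 39 cases and higher in 0, with a median of -0.46. Eif5b, which joins the ribosomal subunits, was at -1.88 but overlaps Rev1, and Eif4g1, the cap-complex scaffold, was at -0.86 and Eif3a at -0.81. Ribosome biogenesis genes were lower in 20 of 44 cases and higher in 0, with a median of -0.53. The processome factors Heatr1 and Utp20, with 45 and 62 exons, were at -1.80 and -1.59, and the nucleolar proteins Gnl3 and Nop58 at -1.08 and -1.04. Heatr1 overlaps Lgals8 and Gnl3 overlaps Pbrm1. Mitochondrial ribosomal proteins were lower in 6 of 75 cases and higher in 0, with a median of -0.28. Mrpl47, at -0.71, overlaps 2 genes, and Mrps36, at -1.10, had 1 lysate above 0.

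**Figure D5:**
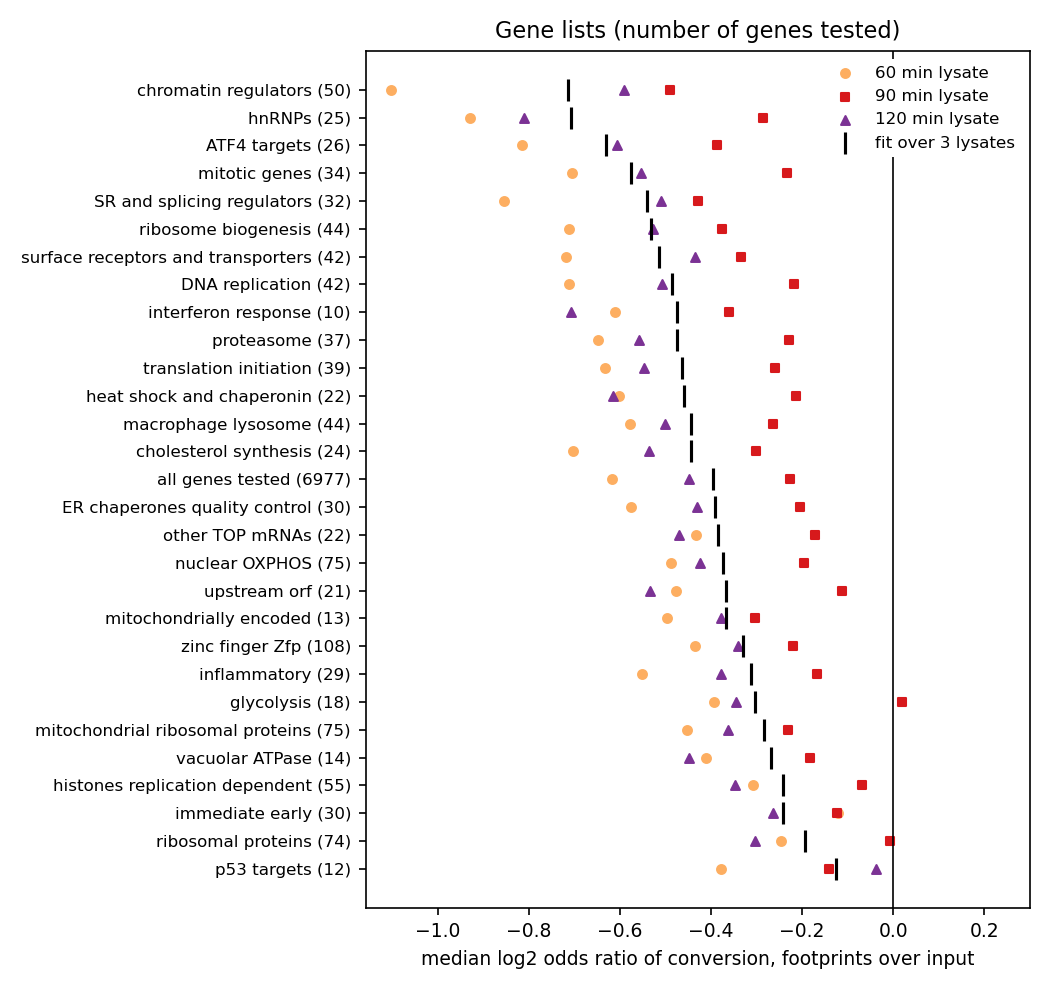
Median log2 odds ratio of conversion, footprints over input (x axis), of each gene list with at least 10 genes tested (y axis, number tested in brackets), in each lysate (symbols) and in the fit over the 3 lysates (bars). Chromatin regulators and hnRNPs lay at -0.72 and -0.71, against -0.40 for all genes, -0.19 for ribosomal proteins and -0.13 for p53 targets.

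Genes of protein folding and breakdown followed. Of 22 heat-shock and chaperonin genes 14 were lower and 0 higher, with a median of -0.46. Hsph1 had 0.581%, 1.41% and 2.71% converted footprints against 2.67%, 2.60% and 9.89% of input, at -1.65 (SE 0.25, adjusted p = 1.05e-08), and Hspa4 was at -0.83, Cct4 at -0.72 and Cct8, which overlaps Usp16, at -0.69. Proteasome subunits were lower in 15 of 37 cases and higher in 0, with a median of -0.47, Psmd1 at -1.20 (overlapping Htr2b and Gm21972), Psmc6 at -0.83, Psmc5 at -0.78 and Psmd14 at -0.74. Endoplasmic reticulum chaperones and quality control factors were lower in 7 of 30 cases and higher in 0, with a median of -0.39, Sec63 at -1.24, Hyou1 at -0.73 and Canx at -0.62. Targets of the transcription factor ATF4, many of them tRNA synthetases, were lower in 15 of 26 cases and higher in 0, with a median of -0.63. The leucyl-, cysteinyl-, isoleucyl- and glutamyl-prolyl-tRNA synthetase genes Lars, Cars, Iars and Eprs were at -1.69, -1.38, -1.13 and -0.98, and each has at least 23 exons.

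Metabolic lists came next. Cholesterol synthesis genes were lower in 6 of 24 cases, with a median of -0.44, Lss at -0.91, Srebf2 at -0.86, Stard4 at -0.71 and Srebf1, which overlaps Rai1, at -0.68. Glycolysis genes were lower in 3 of 18, with a median of -0.30. Pkm, with 0.722%, 1.24% and 1.83% converted footprints against 0.983%, 1.51% and 2.31% of input, was at -0.36 (SE 0.12, adjusted p = 0.0202), and Hk1 was at -0.71 and Gapdh, with 2 named pseudogenes, at -0.53. Nuclear genes of oxidative phosphorylation were lower in 15 of 75, with a median of -0.37, Ndufs4 at -0.89, Ndufs7 at -0.78, Cox7c at -0.61 and Atp5g3 at -0.57. Vacuolar ATPase subunits were lower in 1 of 14, Atp6v0a1 at -1.27. None of these 4 lists had a member called higher by edgeR. The 13 mitochondrially encoded mRNAs, which are made and translated inside mitochondria, were lower in 9 cases and higher in 0, with a median of -0.37. At 120 min their median converted share was 41.5% of footprints, against 48.2% of input. Of these, mt-Cytb had 15.7%, 23.9% and 31.0% converted footprints against 22.1%, 28.7% and 36.9% of input, at -0.45. The pairs mt-Atp8 (-0.86) with mt-Atp6, mt-Nd4l (-0.60) with mt-Nd4 and mt-Nd6 (-0.69) with mt-Nd5 overlap.

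Regulators and response genes were read next. Of 30 immediate-early genes 1 was lower and 0 higher, with a median of -0.24, although the median member had 43.8% converted footprints against 47.3% of input at 120 min. The single call was Txnip, an inhibitor of thioredoxin, with 45.4%, 55.7% and 61.8% converted footprints against 54.5%, 58.2% and 71.6% of input, at -0.44 (SE 0.17, adjusted p = 0.0398). Inflammatory genes were lower in 2 of 29 cases, Cd14 at -0.77 and Nfkb1 at -0.65. Without label Nfkb1 already had 0.696% converted footprints (22 of 3162 reads) against 1.58% of input (25 of 1582). Its late shortfall therefore cannot be assigned to new mRNA either. The interferon list was lower in 3 of 10 cases, among them Trim25 at -0.78 and Adar at -0.60, whose lysates gave -1.57, -0.61 and -0.10. Adar overlaps Chrnb2. Trim25 already had 2.50% converted footprints (87 of 3477 reads) against 6% of input (12 of 200) without label. Its late shortfall therefore cannot be assigned to new mRNA. Of 12 p53 targets 0 were called by edgeR in either direction, with a median of -0.13. In mRNAs known for upstream open reading frames 5 of 21 were lower, among them Hnrnpc at -0.71, Eif5 at -0.65 and Atf4, the stress-response transcription factor, at -0.52. Atf4 had 15.2%, 23.2% and 33.7% converted footprints against 24.5%, 25.5% and 43.0% of input. Of 108 zinc finger genes named Zfp 11 were lower and 3 higher, with Zfp326 at -1.49, Zfp871 at -0.96, Zfp131 at 0.96 and Zfp644 at 1.06.

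Single-exon replication-dependent histone genes were lower in 11 of 55 cases and higher in 0, with a median of -0.24 and 13 near parity. Hist1h1b was at -0.47 and Hist1h2bk at -0.86, but reads of these highly similar genes may be split among copies. Macrophage and lysosome genes were lower in 14 of 44 cases and higher in 0, with a median of -0.44. Mpeg1, a pore-forming protein of macrophages coded in 2 exons, had 2.19%, 3.16% and 4.97% converted footprints against 6.36%, 5.77% and 11.9% of input, at -1.28 (SE 0.22, adjusted p = 7.83e-07). Ctsa was at -0.88, Lpl at -0.66 and Csf1r, the receptor for colony-stimulating factor, at -0.65, while Ctsa overlaps Neurl2 and Pltp and Csf1r overlaps Hmgxb3. Surface receptors and transporters were lower in 13 of 42 cases and higher in 0, with a median of -0.51, Adam17 at -1.05 (overlapping Iah1), the 89-exon receptor Lrp1 at -0.92, Tfrc at -0.88 and Itga4 at -0.85 (overlapping Cerkl). Of the noncoding RNA list and the list of other cell types 0 genes could be tested.

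Whether genes caught up within the hour was asked by the change of the log2 odds ratio per hour from 60 to 120 min. By edgeR 0 of 6977 genes passed the adjusted call in either direction (0%), and 204 had an unadjusted p under 0.05, 59 with a negative and 145 with a positive change. DESeq2 also called 0. The smallest adjusted p was 0.616, the median change was 0.13, and the median SE was 0.84, which limits what 1 lysate per time can show. Pabpc1 gave 0.01 per hour (SE 0.56) and Vps13a 0.05 (SE 1.09), so changes of either sign lie within their error.

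The late lysates were also set against those of 20 and 40 min of experiment 1. By edgeR 0 genes passed in either direction (0%), with 588 at an unadjusted p under 0.05, 64 lower and 524 higher in late lysates. The median late minus early difference was 0.31, above 0 in 4698 of 6977 genes, and the smallest adjusted p was 0.1999. Pabpc1 was higher by 1.57 (SE 0.36, unadjusted p = 2.87e-05) in late lysates, where its single values were 1.59 to 2.08, against -1.03 at 20 min and 0.83 at 40 min. Vps13c was at -1.20 (SE 0.43, unadjusted p = 0.00529) and Mdn1 at -1.25 (SE 0.51, unadjusted p = 0.0159). With the 3 early lysates of experiment 2 added, 15 genes were lower and 1292 higher in late lysates. Early lysates of experiment 2 had library-wide log2 odds ratios of -1.38, -1.80 and -1.21 at 20, 30 and 40 min, against -0.93 and -0.76 in experiment 1 at 20 and 40 min. Since experiment 2 holds early times only, time and experiment cannot be told apart in that count.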

How the data were processed

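Each library's file, as deposited by the authors, holds unnormalised read counts per gene, with a column for every pairing of T positions (0 to 20) and T-to-C conversions (0 to 3). The headings were taken to have this meaning, and 0 reads had more conversions than T. The aligner was Bowtie 0.12.8 and the build mm10, per the submitters' processing notes. For the counting program, its annotation and the region counted, the sources used here give nothing. By the labels' protocols, ribosomal RNA was depleted, NaIO4 served for the conversion and fragments of 25 to 35 nt were kept in both materials. A labelled spike-in was added, and its reads were not analysed here.

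Converted (at least 1 conversion) and unconverted reads of the 6 libraries of 60, 90 and 120 min entered edgeR 4.0.16 as a pair of columns per library, with an input term for each lysate and 1 footprint term. Genes needed a mean of at least 50 reads and at least 50 converted reads in all. The SE and 95% interval are Wald values of that fit, whose spread is shared across genes. A gene's own scatter between lysates therefore does not set its SE or p-value. Lrrc8b had an SD of 1.53 between lysates beside an SE of 0.37, and Coa5 1.38 beside 0.40. p-values were two-sided and adjusted by Benjamini-Hochberg over all genes tested, and adjusted p under 0.05 was the call. The relative fit used each library's total of converted and of unconverted reads as library sizes. The change per hour added a footprint-by-hours term, and late against early used the 10 labelled libraries of experiment 1. Log2 odds ratios of single lysates used a pseudocount of 0.5. The fits were tested on simulated data. Input and footprints were paired by lysate because the protocol text says that input was saved from the same lysate. Alternatives were limma 3.58.1, DESeq2 1.42.0, at least 2 conversions, other read minimums, Mantel-Haenszel odds ratios over T strata, subtraction of the unlabelled share, other centres, no lysate block and leaving out each lysate.

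Exon numbers, coding lengths and overlaps came from GENCODE vM21 (GRCm38), the build called mm10 in the notes, matched by symbol, and 6838 of 6977 genes had a coding annotation. Exon number and coding length, with their alternatives, were added after seeing the data. The members, 30 gene lists and tests were chosen with earlier results of these data known. Named were, among called genes that averaged 100 or more reads over the 3 libraries of each material and the same direction in every lysate, the 12 lowest and 12 highest, the 8 near-parity genes with the narrowest interval, and up to 4 genes per list with the smallest adjusted p. RIKEN clones, Gm genes and -ps genes were not named under that rule. Wilson intervals of converted shares cover counting error only: 5.53% to 5.55% in 120 min footprints and 8.05% to 8.09% in 120 min input.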

Additional observations from a re-analysis of the deposited data

How the results depend on the processing

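The direction of the shortfall held under every alternative: 0 of the results recomputed were reversed. The number of calls did not hold. For footprints against input (1453 lower and 36 higher by edgeR), limma with a pseudocount of 0.5 called 231 lower and 5 higher, the odds ratio stratified by T 179 and 3, subtraction of the unlabelled share 0 and 0, DESeq2 662 and 12, and the fit with no replicate block 0 and 0. In that last fit a single input term spans lysates whose conversion differs. At least 2 conversions gave 11 higher. Leaving out lysates gave 296 to 1527 lower and 9 to 37 higher. All 662 lower and 12 higher genes called by DESeq2, and all 179 lower and 3 higher genes called by the T-stratified fit, were also called by edgeR.

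Relative to the library-wide odds (265 lower and 550 higher), at least 2 conversions gave 92 and 195, DESeq2 112 and 179, no replicate block 42 and 66, and limma with a pseudocount of 2 gave 0 and 2. Limma with a pseudocount of 0.5 gave 0 and 0, with 432 and 878 at an unadjusted p under 0.05. The T-stratified limma fit and limma after subtraction of the unlabelled share were centred at the median over genes instead. They also gave 0 and 0, with 654 and 485, and 697 and 507 at an unadjusted p under 0.05. Their split between directions thus differs in centre too. The median over genes as the centre gave 258 higher. Leaving out lysates gave 91 to 254 lower and 117 to 576 higher. For late minus early (0 and 0), the library-wide centre gave 1 lower, the early lysates of both experiments 15 lower and 1292 higher, and leaving out lysates 0 to 1 lower and 0 to 7 higher. The change per hour was not recomputed without single lysates because no residual degree of freedom is left.

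The library-wide log2 odds ratio was -0.96 from at least 2 conversions and -0.64 to -0.49 on leaving out lysates. Spearman's rho with exon number and coding length was -0.45 and -0.36 at a mean of at least 200 reads, -0.39 to -0.37 and -0.31 to -0.28 on leaving out lysates, and -0.26 for coding length by limma with a pseudocount of 2. Across 148 named results and their alternatives, 1058 of 1787 values kept their side of the threshold, 719 lost it and 10 gained it. Of 336 list medians 34 moved by more than the spread between lysates, 27 of them with at least 2 conversions. The causes were not tested. Unlabelled conversion was near 0.3% of reads over whole libraries but higher in single genes such as Trim25 and Nfkb1. It limits genes with few labelled footprints, such as Vps13a.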
